A study of Mus musculus with 12 samples.

Results

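The 40 genes described here encode the machinery of mitosis, from cyclin B to the kinetochore and the cytokinetic ring. They were taken by gene symbol from a count table of 47069 mouse genes, and each of the 40 symbols matched 1 entry. RNA had been sequenced from whole lungs of C57BL/6 mice at embryonic day 15.5 (E15.5), 3 conditional knockout (CKO) and 3 wild-type (WT) lungs as the labels number them. The CKO lungs carried floxed Tgfbr2, which encodes a receptor subunit for TGF-beta ligands, with the transgenes Tbx4-rtTA and Teto-Cre. The labels write the floxed alleles as lox/flox in CKO replicates 1 and 2 and as flox/flox in CKO replicate 3. For the WT lungs the labels give no allele beyond wild type. Doxycycline, which turns on the Cre, is noted for both groups, with E6.5 as its first day; it was in the food and, at 1 mg/ml, in the water. Tbx4-rtTA acts in lung mesenchyme. Which cell types of these lungs lost Tgfbr2, and whether endothelium was among them, was not measured. Tgfbr2 itself had 213, 221 and 239 CPM in the CKO lungs against 199.6, 202.5 and 229.8 CPM in the WT lungs. CPM are reads of a gene scaled to a common library size, with a correction for library composition. That count covers the whole gene in all lung cells and checks nothing about the deletion.

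As background, a dividing cell accumulates the transcripts of these genes late in S phase and in G2, uses the proteins in M phase, and destroys many of them at its end. Cyclin B with CDK1 drives entry, the kinetochore ties chromosomes to the spindle, the spindle checkpoint delays anaphase until all are attached, and the anaphase-promoting complex then degrades cyclin B and securin. In the fetal lung, epithelium, mesenchyme, endothelium and blood cells all divide, so the level of these genes in the whole organ is widely read as a sum over many dividing cell types.

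Gene counts summed to 36741615 to 41680516 in the CKO lungs and to 31983717 to 51572845 in the WT lungs. All 12 distal lung epithelium markers and all 12 lung mesenchyme markers of fixed lists were counted in every lung. Being counted shows only that reads were present, and several of these markers differed in level between the groups, as given below. The lungs of a group differed in ways the labels do not name. Xist had 100817 counts in CKO replicate 1 and 61807 in WT replicate 1, against 22 to 41 in the other lungs. Reads outside annotated features made up 11.8% to 17.05% of uniquely mapped reads in the CKO lungs and 14.5% to 16.1% in the WT lungs. On the leading principal component CKO replicate 1 lay at -2.41, between CKO replicates 2 and 3 at 45.3 and 50.8 and the WT lungs at -34.4 to -28.1.

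Mitosis genes differed little between CKO and WT lungs. Of the 40 members, all passed the filter on low counts, 0 rose, 1 fell and 39 did not pass the test (edgeR's quasi-likelihood test, adjusted p under 0.05 over all 17843 genes tested). The member that fell was Plk1, the polo-like kinase that drives entry into and progress through mitosis, at 0.875 times its WT level. Over all genes tested 8.71% passed, 5.64% higher and 3.08% lower, beside 2.5% of the members. At an unadjusted p under 0.05, 3 members were lower and 0 higher, 7.5% of the members, beside 25.4% of all genes tested in either direction. That count was 9 without WT replicate 3, 1 without WT replicate 1 or WT replicate 2, 2 without CKO replicate 2 or CKO replicate 3, and 4 without CKO replicate 1. Calls over all genes moved as well with the lung left out. At an adjusted p under 0.05 they were 1246 higher and 813 lower without WT replicate 3. Without WT replicate 2 they were 162 and 90, and without CKO replicate 1 they were 1713 and 1185. The share of all genes at an unadjusted p under 0.05 was not taken in these fits. The log2 fold changes of the members ran from -0.19 to 0.04, with a median of -0.0397, beside a median of -0.00461 over all genes. The median of the members was -0.0158 without CKO replicate 3, -0.0176 without WT replicate 1 and -0.0645 without WT replicate 3, and stayed negative with any 1 lung left out. Without regard to sign, the median size was 0.0432 for the members and 0.139 for all genes tested. These shares and medians are descriptions; the members were not tested as a set.

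The precision behind these values sets how large an undetected difference could be. The 95% intervals of the 40 log2 fold changes together spanned -0.305, the lower bound of Plk1, to 0.165, the upper bound of Spc25. As ratios of CKO to WT lungs these bounds are 0.809 and 1.12. For 37 members the interval held 0. The standard errors were 0.0385 to 0.0716 with a median of 0.0511, beside a median of 0.0991 over all genes tested. An adjusted p above the threshold does not show that a member was equal in both groups, and the intervals give the differences that these lungs leave possible. The labels name no litters, so the p-values reflect variation among these 6 lungs only. In a whole lung, fewer cells of a dividing type and less RNA per cell cannot be told apart.

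**Figure D1:**
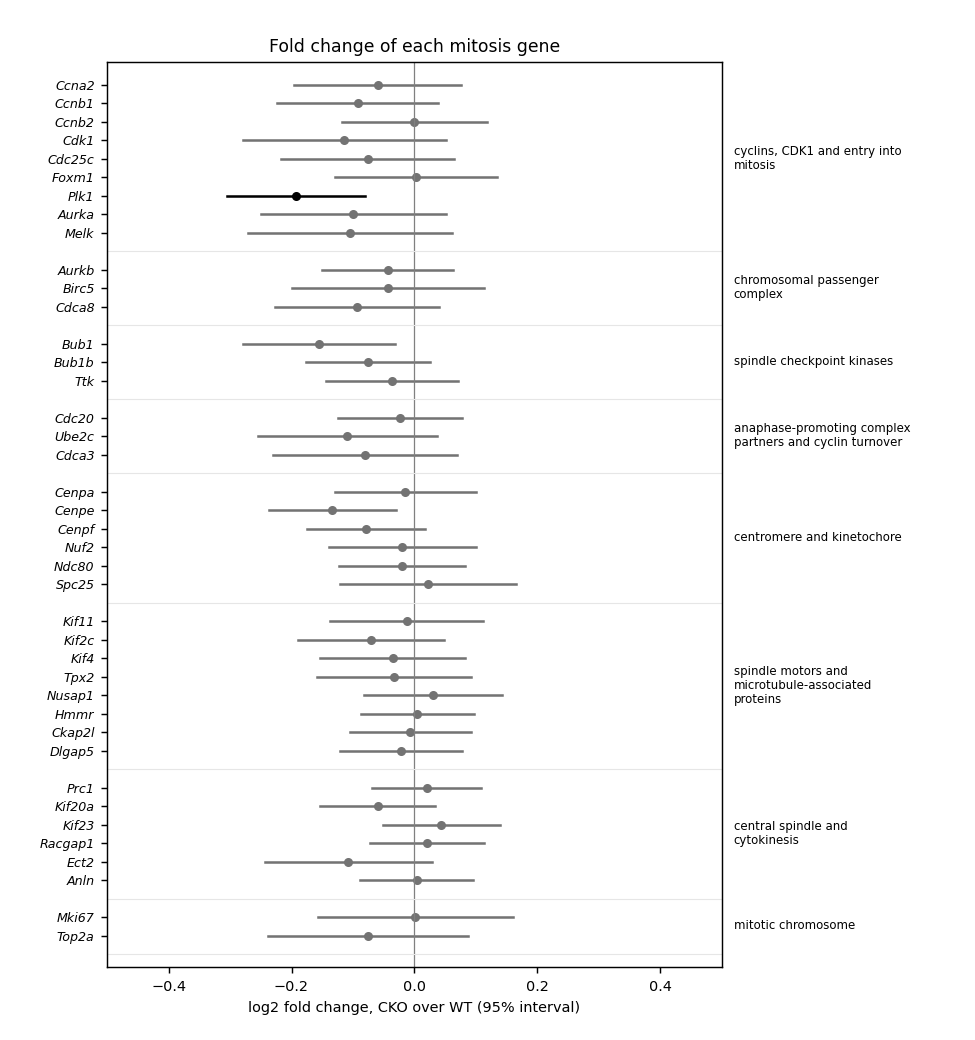
Log2 fold change of each of the 40 mitosis genes, CKO over WT lungs (x axis), with bars for the 95% interval and genes grouped by role down the page. Plk1, in black, is the gene with an adjusted p under 0.05, and the intervals of 37 genes hold 0.

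Read per length of merged exons, the members covered a 13.2-fold range of levels. Top2a, the topoisomerase that untangles and condenses chromosomes, averaged 102 CPM per kb over the groups. Mki67, whose Ki-67 protein coats mitotic chromosomes and serves as the common marker of dividing cells, averaged 95.6 CPM per kb, and Ccnb2, cyclin B2, 92.0 CPM per kb. At the low end stood Dlgap5, a spindle assembly factor, at 12 CPM per kb, Ndc80, the microtubule-binding arm of the kinetochore, at 11.5, and Cdc25c, a phosphatase that activates CDK1, at 7.715. The median member had 31.9 CPM per kb, and 24 of 40 members lay between 20 and 50. Both groups placed the genes in nearly the same order, with a rank correlation of 0.994 over the 40 genes, which share the same libraries and lengths. The lowest count of any member in a lung was 1270 reads, that of Cdc25c in WT replicate 1.

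**Figure D2:**
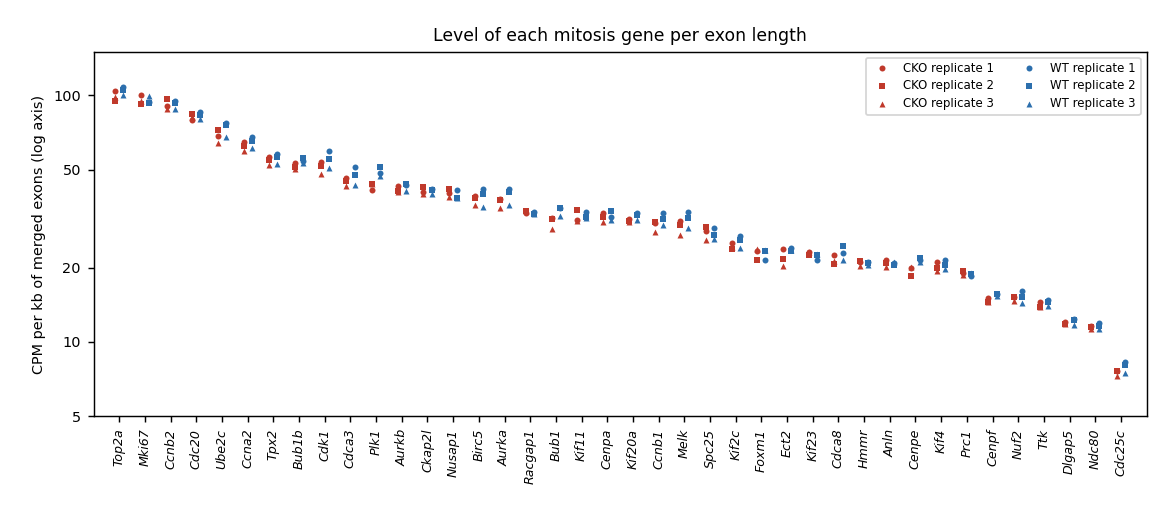
CPM per kb of merged exons on a log axis for the 40 mitosis genes, ordered from high to low, with 1 point for each of the 3 CKO (red) and 3 WT (blue) lungs. Levels run from about the 102 CPM per kb of Top2a to the 7.715 of Cdc25c, and the points of the 2 groups lie close together at every gene.

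Many mitosis genes are known to be repressed outside G2 and M phase by the MuvB core, which binds a promoter element called CHR, and to be activated by NF-Y at CCAAT boxes. RefSeq (GRCm38.p6) promoter windows, 250 bases before to 50 bases after the start site, were at hand for 33 of the 40 members, 2 of them with 2 windows. The letters TTTGAA, on either strand, were present in 28 of these 35 windows (80%), beside 17.9% of all 32851 windows. The related letters TTCGAA were in 3 windows (8.57%, beside 1.56%), and CCAAT, on either strand, in 28 (80%, beside 37.4%). Both a CHR-like hexamer and CCAAT were present in 26 windows (74.3%, beside 7.52%), and the hexamer overlapped a CCAAT in 1 place. In 25 of the 33 genes a hexamer began between 50 bases before and 50 bases after the start site. The share of all windows with a hexamer there was not taken, so this count has nothing to be set beside. Windows are printed for 6 members. Plk1 and Bub1 are among the 3 members with the smallest p, Cdk1, Ccnb2 and Cdc20 act at entry and exit, and Mki67 is the common proliferation marker. Cenpe, the other of those 3, is not printed, and its window held 1 CCAAT and 0 of either hexamer. The windows of Birc5, Ccnb1, Melk, Nuf2 and Nusap1 also held 0 of either hexamer, whereas each printed window holds at least 1. The printed windows run 5′ to 3′, with the searched hexamers and CCAAT, or their reverse complements, in capitals.
Plk1 (chr7:122159185-122159484, plus strand): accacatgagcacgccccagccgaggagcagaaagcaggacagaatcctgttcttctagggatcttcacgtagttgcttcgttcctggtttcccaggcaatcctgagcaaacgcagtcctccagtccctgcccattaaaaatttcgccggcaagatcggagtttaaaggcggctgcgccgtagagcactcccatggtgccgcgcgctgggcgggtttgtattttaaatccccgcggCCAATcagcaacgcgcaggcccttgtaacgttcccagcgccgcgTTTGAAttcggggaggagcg
Bub1 (chr2:127831810-127832109, minus strand): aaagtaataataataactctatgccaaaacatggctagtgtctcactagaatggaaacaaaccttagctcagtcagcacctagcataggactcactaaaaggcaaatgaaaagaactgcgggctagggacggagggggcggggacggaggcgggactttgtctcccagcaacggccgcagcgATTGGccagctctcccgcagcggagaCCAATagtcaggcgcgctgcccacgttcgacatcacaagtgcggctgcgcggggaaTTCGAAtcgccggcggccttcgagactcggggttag
Cdk1 (chr10:69352863-69353162, minus strand): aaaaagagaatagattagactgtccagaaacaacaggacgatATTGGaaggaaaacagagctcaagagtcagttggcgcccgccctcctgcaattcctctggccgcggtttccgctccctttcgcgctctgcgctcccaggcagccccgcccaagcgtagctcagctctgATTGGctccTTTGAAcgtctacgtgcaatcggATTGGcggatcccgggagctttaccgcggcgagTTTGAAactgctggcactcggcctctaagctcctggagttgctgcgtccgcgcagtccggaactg
Ccnb2 (chr9:70421505-70421804, minus strand): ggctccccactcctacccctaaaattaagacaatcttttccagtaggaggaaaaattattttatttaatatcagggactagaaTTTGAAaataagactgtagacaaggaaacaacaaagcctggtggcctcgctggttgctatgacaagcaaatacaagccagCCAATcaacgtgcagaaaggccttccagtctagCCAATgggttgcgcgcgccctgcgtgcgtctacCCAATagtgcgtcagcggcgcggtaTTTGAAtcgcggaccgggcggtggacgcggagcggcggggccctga
Cdc20 (chr4:118437294-118437593, minus strand): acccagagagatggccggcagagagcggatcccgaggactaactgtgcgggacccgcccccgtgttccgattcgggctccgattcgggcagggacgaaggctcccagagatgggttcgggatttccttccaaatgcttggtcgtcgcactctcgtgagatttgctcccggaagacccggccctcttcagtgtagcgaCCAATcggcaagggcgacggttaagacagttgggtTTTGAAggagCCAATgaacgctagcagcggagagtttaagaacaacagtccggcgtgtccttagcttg
Mki67 (chr7:135716330-135716629, minus strand): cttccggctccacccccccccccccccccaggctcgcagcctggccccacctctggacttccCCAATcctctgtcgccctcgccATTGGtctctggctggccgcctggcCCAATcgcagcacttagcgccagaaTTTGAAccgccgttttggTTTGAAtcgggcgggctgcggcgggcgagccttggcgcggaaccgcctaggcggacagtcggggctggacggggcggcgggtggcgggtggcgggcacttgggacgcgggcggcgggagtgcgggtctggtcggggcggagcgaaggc
Plk1 held 1 TTTGAA and 1 CCAAT, Bub1 1 TTCGAA and 2 CCAAT, and Cdk1 and Ccnb2 2 TTTGAA and 3 CCAAT each. A match of letters is a description of the sequence and no evidence of binding in these lungs. Cdc20 held 1 TTTGAA and 2 CCAAT, and Mki67 2 TTTGAA and 3 CCAAT.

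Genes that drive entry into mitosis gave the call. Plk1 (chromosome 7, 122159439 to 122169873, plus strand, GRCm38) had 90.6, 95.7 and 96.5 CPM in CKO replicates 1 to 3, against 107, 113 and 104 CPM in WT replicates 1 to 3. Every CKO lung lay below every WT lung. Plk1 averaged 94.3 ± 3.20 CPM in CKO and 108 ± 4.63 CPM in WT lungs (SD, n = 3 each), a log2 fold change of -0.19 ± 0.05 SE (adjusted p = 0.0499 by edgeR). Of the 1555 genes called it had the largest p. The call ended in 14 of 17 other settings, among them every lung left out except WT replicate 3. The adjusted p was 0.125, 0.162 and 0.140 without CKO replicates 1, 2 and 3, and 0.131, 0.198 and 0.0395 without WT replicates 1, 2 and 3. In all 17 settings its log2 fold change was negative, between -0.213 and -0.127. The authors' deposited table gives Plk1 a log2 fold change of -0.196 and an adjusted p of 0.373.

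Cyclin B and its kinase showed less. Cdk1, the kinase that cyclins A and B activate, had 264, 254 and 236 CPM in the CKO lungs against 293, 273 and 250 CPM in the WT lungs (log2 fold change -0.11 ± 0.07 SE, adjusted p = 0.365). CKO replicates 1 and 2 lay above WT replicate 3. Ccnb1, cyclin B1, had 128, 129 and 117.5 CPM in the CKO lungs and 140.4, 133 and 126 CPM in the WT lungs (log2 fold change -0.09 ± 0.06 SE, adjusted p = 0.356). Ccnb2 had 139, 148 and 135 CPM in the CKO lungs and 145, 143 and 134.5 CPM in the WT lungs. Its group means were the same to 4 digits, 140.8 ± 6.77 CPM in CKO and 140.8 ± 5.67 CPM in WT lungs. Aurka, the centrosomal Aurora kinase, had 96.0, 95.03 and 88.35 CPM in the CKO lungs and 106, 102 and 91.1 CPM in the WT lungs. Cdc25c had 37.5, 37.6 and 35.8 CPM in the CKO lungs and 40.6, 39.65 and 36.6 CPM in the WT lungs. This least abundant member averaged 36.9 ± 0.982 CPM in CKO and 39.0 ± 2.10 CPM in WT lungs. Ccna2, cyclin A2, and Melk, a kinase gene of dividing progenitors, had log2 fold changes of -0.06 and -0.10. Foxm1, the transcription factor that activates G2 and M phase genes, stood at 132 ± 6.82 CPM in CKO and 131 ± 7.14 CPM in WT lungs. Summed over the 9 entry genes, CPM were 1214 ± 40.2 in CKO and 1282 ± 62.0 in WT lungs.

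The spindle checkpoint kinases lay slightly lower in the CKO lungs without passing the test. Bub1 (chromosome 2, 127801122 to 127831865, minus strand), a kinase that recruits checkpoint proteins to the kinetochore, had 138, 137 and 125 CPM in the CKO lungs and 152, 152 and 141 CPM in the WT lungs. Its groups did not overlap (log2 fold change -0.15 ± 0.05 SE, adjusted p = 0.121). Bub1b, which encodes BUBR1 of the mitotic checkpoint complex, had 228, 219.5 and 216 CPM in the CKO lungs against 231, 239 and 228.3 CPM in the WT lungs. There the highest CKO lung fell just short of the lowest WT lung (log2 fold change -0.07 ± 0.04 SE, adjusted p = 0.330). Ttk, the MPS1 kinase at the head of the checkpoint, averaged 69.2 ± 1.74 CPM in CKO and 71.0 ± 1.93 CPM in WT lungs.

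Of the 6 centromere and kinetochore genes, 0 passed and 2 had groups that did not overlap. Cenpe (chromosome 3, 135212537 to 135273611, plus strand), a kinesin that carries chromosomes to the spindle equator, had 172, 160.1 and 174 CPM in the CKO lungs and 186, 188 and 182 CPM in the WT lungs. The groups did not overlap (log2 fold change -0.13 ± 0.04 SE, adjusted p = 0.113). Cenpf, a large kinetochore protein gene, had 233, 224 and 225 CPM in the CKO lungs and 242, 240.2 and 238 CPM in the WT lungs, again without overlap (log2 fold change -0.08 ± 0.04 SE, adjusted p = 0.278). Ndc80 lay at 75.3, 74.7 and 73.0 CPM in the CKO lungs and 77.5, 75.2 and 73.5 CPM in the WT lungs. Its NDC80 complex partners Nuf2 and Spc25 had log2 fold changes of -0.02 and 0.02. Cenpa, the histone H3 variant that marks the centromere, averaged 187.5 ± 7.85 CPM in CKO and 189 ± 8.02 CPM in WT lungs. In all, the groups did not overlap for 5 members, Plk1, Bub1, Bub1b, Cenpe and Cenpf, and the CKO lungs were lower in each. That is 12.5% of the members, beside 29.9% of all genes tested, 14.4% with the CKO lungs lower.

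The chromosomal passenger complex, which corrects faulty attachments, and the partners of the anaphase-promoting complex showed overlapping groups throughout. Cdca8, the passenger subunit borealin, had 116, 108 and 110.3 CPM in the CKO lungs and 119, 126.5 and 111 CPM in the WT lungs. Aurkb, the kinase of the complex, and Birc5, survivin, both had log2 fold changes of -0.04. Ube2c, the E2 enzyme that starts ubiquitin chains on cyclin B, had 177, 187.5 and 167 CPM in the CKO lungs and 200.1, 197 and 177 CPM in the WT lungs (log2 fold change -0.11 ± 0.06 SE, adjusted p = 0.325). Cdc20, the activator that brings substrates to the complex, averaged 153 ± 4.51 CPM in CKO and 155 ± 5.09 CPM in WT lungs. Cdca3, linked to turnover of the mitotic inhibitor WEE1, had a log2 fold change of -0.08.

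The roles with the medians closest to 0 were cytokinesis, at a log2 fold change of 0.0119, and the spindle, at -0.0172. The 8 genes of spindle motors and microtubule-associated proteins summed to 1197 ± 33.2 CPM in CKO and 1211 ± 42.4 CPM in WT lungs. Their log2 fold changes ran from -0.07 for Kif2c, a microtubule-depolymerizing kinesin, to 0.03 for Nusap1, a microtubule-bundling protein gene. Kif11, the bipolar spindle motor, had -0.01, Kif4 -0.04, Tpx2 -0.03, Hmmr 0.00 and Ckap2l -0.01. Dlgap5 had 82.0, 80.5 and 80.6 CPM in the CKO lungs and 83.8, 83.3 and 79.7 CPM in the WT lungs, with overlap and a log2 fold change of -0.02. The 6 genes of the central spindle and cytokinesis summed to 1018 ± 16.8 CPM in CKO and 1021 ± 2.44 CPM in WT lungs. Among these, Ect2, the exchange factor that switches on RhoA at the division plane, had 128, 117 and 109.8 CPM in the CKO lungs and 129, 126 and 127.5 CPM in the WT lungs (log2 fold change -0.11 ± 0.06 SE, adjusted p = 0.298). Kif20a, a kinesin of the central spindle, had 137, 135 and 133 CPM in the CKO lungs and 144, 142 and 136 CPM in the WT lungs. Racgap1 and Kif23, which together form centralspindlin, had log2 fold changes of 0.02 and 0.04, the bundler Prc1 had 0.02, and the ring scaffold Anln had 0.00.

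The most abundant pair of genes also overlapped. Mki67 (chromosome 7, 135689784 to 135716361, minus strand) had 1006, 926 and 956 CPM in the CKO lungs and 945.5, 938 and 1001 CPM in the WT lungs, with the highest value in a CKO lung. Its log2 fold change was 0.00 ± 0.07 SE, with a 95% interval of -0.156 to 0.160. Top2a had 942, 856 and 886 CPM in the CKO lungs and 976, 952 and 901 CPM in the WT lungs (log2 fold change -0.08 ± 0.07 SE, adjusted p = 0.557).

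Several members share exon sequence with a gene on the opposite strand, and no source used here states whether reads were counted by strand. Kif20a shares 1271 bases with Cdc23, which had 34937 counts over all lungs beside 34019 for Kif20a. Prc1 shares 911 bases with Rccd1, Kif4 832 with Pdzd11, Ccna2 510 with Exosc9, Cdca8 232 with 9930104L06Rik, Nusap1 172 with Oip5 and Cdc20 53 with Elovl1. Plk1, the member called, shares 156 bases with Gm44985, which had 161 counts over all lungs beside 25095 for Plk1. Cdc25c shares 623 bases with Gm3550 (493 counts beside 9375), Ube2c 592 with Tnnc2 (1 count) and Ckap2l 181 with Gm14024 (0 counts). Their values are uncertain where reads of both genes could not be told apart.

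Differences between lungs of a group were of the same order as the difference between groups. Summed over the 40 members, CPM were 7568, 7344 and 7200 in CKO replicates 1 to 3 and 7767, 7646 and 7398 in WT replicates 1 to 3, so that CKO replicate 1 lay above WT replicate 3. The sums averaged 7371 ± 185 CPM in CKO and 7604 ± 188 CPM in WT lungs. Relative to the WT mean, the median member stood at -0.005, -0.052 and -0.081 log2 units in CKO replicates 1 to 3 and at 0.039, 0.013 and -0.054 in WT replicates 1 to 3. Replicate 3 was the lowest of its group for 28 members in the CKO lungs and for 34 in the WT lungs. Replicate 1, the lung with Xist in each group, was the highest for 24 members in the CKO lungs and for 29 in the WT lungs; the part of sex in this was not tested. With replicates 2 and 3 alone, the median log2 fold change of the members was -0.0506 and 0 passed, beside 13.4% of all genes tested. The coefficient of variation of the median member was 3.84% in CKO and 4.07% in WT lungs, beside 7.40% and 8.07% over all genes tested. Between the 2 sequencing runs of a lung, members differed by a median of 0.0390 log2 units, and between lungs of a group by 0.0625 in CKO and 0.0734 in WT lungs.

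**Figure D3:**
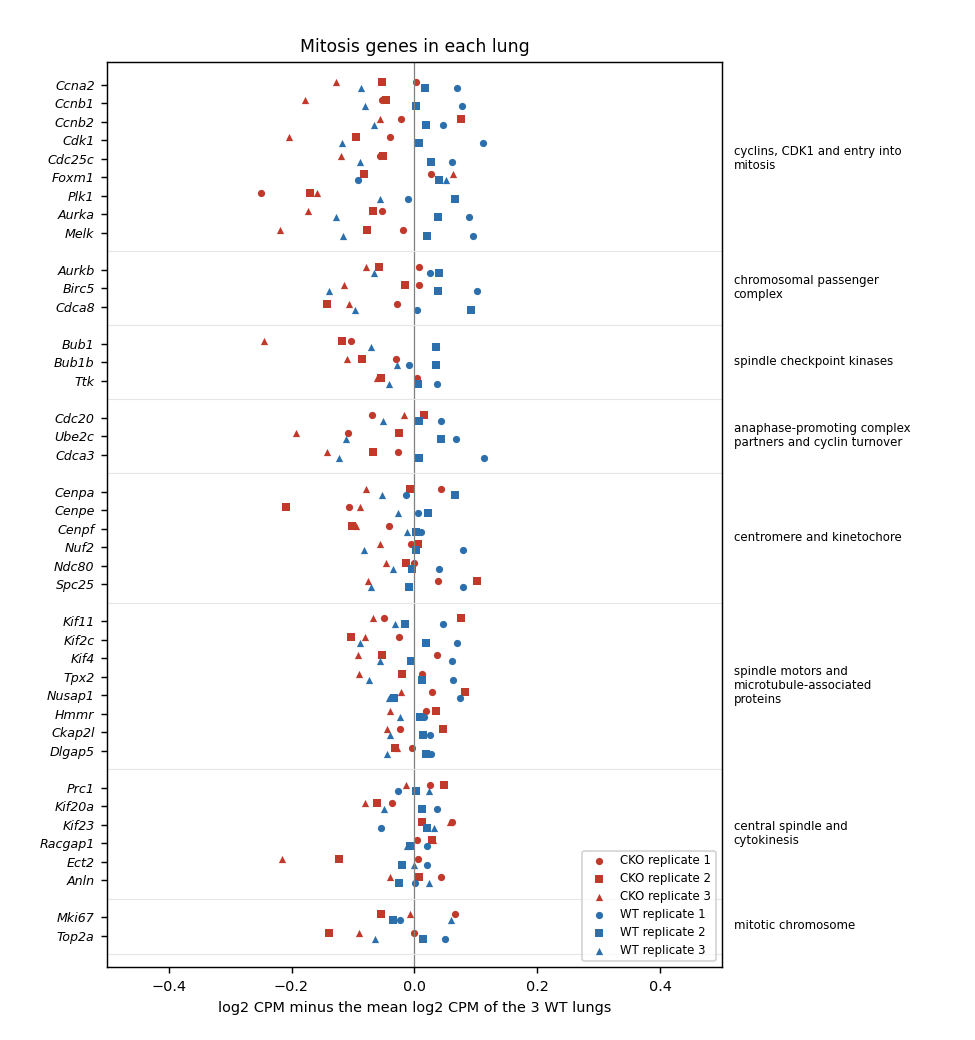
Log2 CPM of each mitosis gene in each lung minus the mean of the 3 WT lungs (x axis), with genes grouped by role, CKO lungs in red and WT lungs in blue, and 1 marker shape per replicate number. Plk1, Bub1, Bub1b, Cenpe and Cenpf are the genes whose CKO and WT points do not overlap, and replicate 3 is often the lowest of its group.

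Among mitosis genes outside the 40, 1 changed. In a list of 79 further genes of condensins, kinetochores, kinesins and mitotic regulators, 1 rose, 0 fell and 78 did not pass, with a median log2 fold change of -0.0488. The gene that rose was Hjurp, the chaperone that loads CENP-A at centromeres. Hjurp had 526, 473 and 500.3 CPM in the CKO lungs against 329.6, 341.5 and 344 CPM in the WT lungs, with no overlap (log2 fold change 0.56 ± 0.06 SE, adjusted p = 0.00381). It passed in all 17 other settings, with log2 fold changes of 0.506 to 0.629. Its cargo gene Cenpa had a log2 fold change of -0.01, as above. Ncapg, a condensin subunit, Psrc1, a spindle protein gene, and Mad2l1, a checkpoint gene, had log2 fold changes of -0.18, -0.33 and -0.18 and did not pass (adjusted p = 0.0624, 0.0674 and 0.0969). Ncapg overlaps Lcorl on the opposite strand. Of 16 subunits and partners of the anaphase-promoting complex 0 passed (1 at an unadjusted p under 0.05; Cdc16, Anapc7, Anapc4 and Fzr1 had log2 fold changes of -0.11, -0.08, -0.06 and -0.06).

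Most genes of the preceding phase had slightly negative estimates, as did most mitosis genes, and 1 of the S-phase genes fell. Estimates were negative for 55 of 58 S-phase genes, 31 of the 40 members and 60 of the 79 further mitosis genes. Over all 17843 genes tested 9122 were negative. Among 58 genes of S phase and DNA replication 0 rose, 1 fell and 57 did not pass, and the median log2 fold change was -0.126. At an unadjusted p under 0.05, 24 of the 58 were lower in the CKO lungs and 0 higher, beside 12% lower among all genes tested; whether this list differs from the mitosis genes was not tested. The gene that fell was Rpa1, a subunit of the single-strand DNA binding complex, with 248, 235 and 219 CPM in the CKO lungs and 304, 299 and 271 CPM in the WT lungs (log2 fold change -0.32 ± 0.07 SE, adjusted p = 0.0282). It did not pass without CKO replicate 2 (0.118), CKO replicate 3 (0.111), WT replicate 1 (0.0997) or WT replicate 2 (0.129), nor with spike-in scaling (0.196) or the covariate for reads outside features (0.0508). Blm, a helicase gene, Dut, a dUTPase gene, and Ccne1, cyclin E1, had log2 fold changes of -0.17, -0.28 and -0.31 and did not pass (adjusted p = 0.0709, 0.0830 and 0.0848). The S-phase sums were 6598, 6188 and 6142 CPM in the CKO lungs and 7235, 7034 and 6518 CPM in the WT lungs, with CKO replicate 1 above WT replicate 3. The ratio of the mitosis sum to the S-phase sum was 1.15, 1.19 and 1.17 in the CKO lungs and 1.07, 1.09 and 1.14 in the WT lungs. The groups did not overlap, but CKO replicate 1 at 1.147 and WT replicate 3 at 1.135 lay close. Groups also did not overlap for 29.9% of all single genes tested, and a difference in this ratio was not tested.

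Among regulators of the step into S phase, 3 inhibitors rose. Of 15 tested G1 cyclins, kinases and inhibitors 3 rose, 0 fell and 12 did not pass, and the median log2 fold change was 0.0509. Cdkn2b, an INK4 inhibitor of CDK4 and CDK6 that TGF-beta is known to induce in other cells, had 2.94, 6.29 and 5.67 CPM in the CKO lungs and 0.927, 0.720 and 1.498 CPM in the WT lungs (log2 fold change 2.24 ± 0.36 SE, adjusted p = 0.0131). Cdkn2c, a second INK4 inhibitor, had 36.2, 41.2 and 39.9 CPM in the CKO lungs and 27.3, 26.5 and 31.5 CPM in the WT lungs (log2 fold change 0.46 ± 0.09 SE, adjusted p = 0.0200). Cdkn1a, the p21 inhibitor, had 12.1, 12.3 and 15.1 CPM in the CKO lungs and 7.42, 7.335 and 10.3 CPM in the WT lungs. It averaged 13.2 ± 1.71 CPM in CKO and 8.34 ± 1.67 CPM in WT lungs (log2 fold change 0.66 ± 0.16 SE, adjusted p = 0.0427), and it overlaps AC167363.2 on the opposite strand. In none of the 3 did the groups overlap. Leaving out CKO replicate 2, or either of WT replicates 1 and 2, ended all 3 calls (adjusted p = 0.0620 to 0.167), and without CKO replicate 3 Cdkn2c (0.0717) and Cdkn1a (0.137) did not. With spike-in scaling Cdkn2c (0.0600) and Cdkn1a (0.0887) did not pass. Cdkn1a was lost in 9 of 17 settings, also with run 1 alone (0.0919), run 2 alone (0.0514), replicates 2 and 3 only (0.0579) and the share of reads outside features as a covariate (0.0765). Ccnd3, cyclin D3, had a log2 fold change of 0.35 (adjusted p = 0.0663) and overlaps Bysl on the opposite strand.

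Among 17 regulators of the MuvB, DREAM and E2F families 0 rose, 1 fell and 16 did not pass, with a median log2 fold change of -0.08. E2f3, an activating E2F, had 78.6, 72.3 and 68.2 CPM in the CKO lungs and 99.6, 103 and 95.85 CPM in the WT lungs (log2 fold change -0.45 ± 0.06 SE, adjusted p = 0.00790). Its call was lost with spike-in scaling (0.0678), and it passed in the other 16 settings. Tfdp1, the E2F dimer partner, E2f8 and E2f4 had log2 fold changes of -0.19, -0.14 and -0.11 and did not pass (adjusted p = 0.0939 to 0.185). E2f8 overlaps Gm2788 on the opposite strand.

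**Figure D4:**
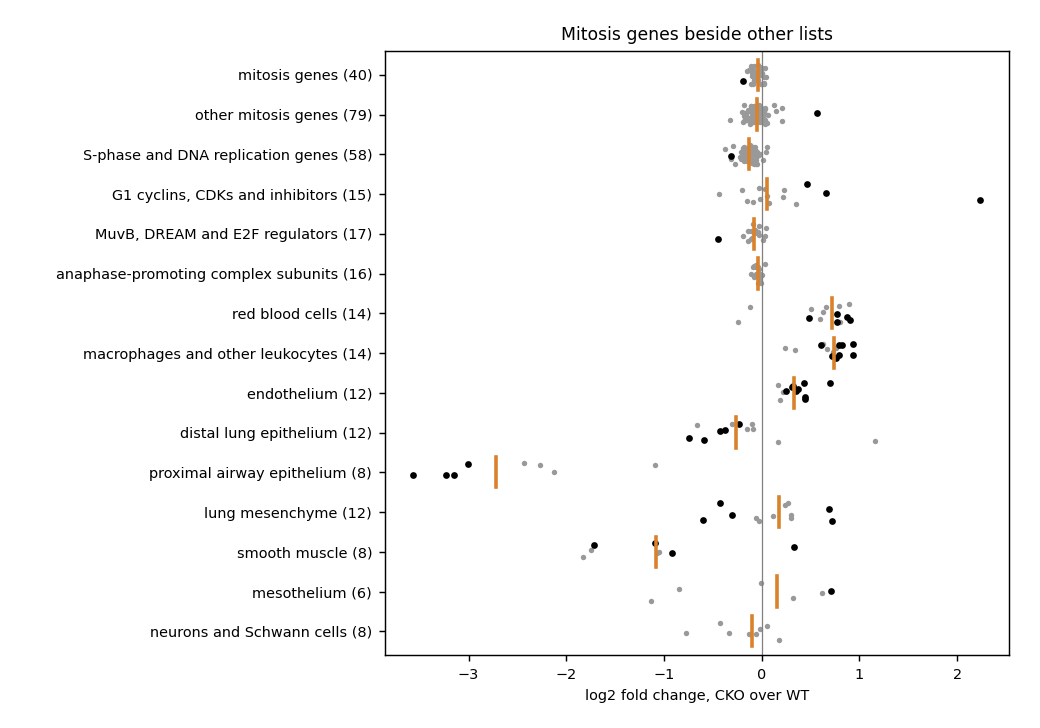
Log2 fold change, CKO over WT lungs (x axis), of every tested gene in the mitosis genes and 14 further lists, with the number tested in brackets, black points for an adjusted p under 0.05 and orange bars for medians. The mitosis genes lie between -0.19 and 0.04, while proximal airway and smooth muscle markers have medians of -2.72 and -1.08 and leukocyte markers 0.74.

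Markers of several cell types of the lung differed between groups. Red blood cell markers summed to 2407 to 3330 CPM in the CKO lungs and 1501 to 1802 CPM in the WT lungs, and of 14 tested 5 rose and 0 fell. For macrophages and other leukocytes the sums were 281 to 429 CPM in the CKO lungs and 228 to 244 CPM in the WT lungs, and 8 of 14 rose. Endothelial markers summed to 2160 to 2411 CPM in the CKO lungs and 1793 to 1930 CPM in the WT lungs, and 9 of 12 rose. Distal lung epithelium markers summed to 1981 to 2359 CPM in the CKO lungs and 2520 to 3216 CPM in the WT lungs, and 5 of 12 fell, with 0 rising. The largest part of these sums was Sftpc, at means of 604.5 CPM in CKO and 960.2 CPM in WT lungs. Sftpc did not pass (adjusted p = 0.125), and it was highest in WT replicate 3, at 1235 CPM. Foxa2, Epcam, Sox9 and Etv5 had log2 fold changes of -0.60, -0.43, -0.23 and -0.75 and fell. The 2 of the list with positive estimates did not pass: Sftpb, a surfactant protein gene, at a log2 fold change of 1.16 with no overlap (adjusted p = 0.0530), and Nkx2-1 at 0.16 (adjusted p = 0.320). Proximal airway markers summed to 6.67 to 48.1 CPM in the CKO lungs and 83.2 to 143 CPM in the WT lungs, and 4 of 8 tested fell. Smooth muscle markers summed to 479 to 833 CPM in the CKO lungs and 1125 to 1205 CPM in the WT lungs; 3 of 8 fell and 1, Des, rose. Lung mesenchyme markers are those of the tissue in which Tbx4-rtTA acts. They summed to 6808 to 7663 CPM in the CKO lungs and 5701 to 6416 CPM in the WT lungs, without overlap. Most of each sum was Col3a1 and Col1a1, at means of 3295 and 1619 CPM in CKO and 2727 and 1315 CPM in WT lungs. Neither collagen gene passed (adjusted p = 0.09645 and 0.127), and the sum describes mainly them rather than the list. Of the 12 mesenchyme markers Meox2 and Tcf21 rose and Wnt2, Pdgfra and Tbx5 fell. Of 6 mesothelial markers 1, Upk3b, rose and 0 fell, and 3 had negative estimates. Wt1, Krt19 and Msln had log2 fold changes of 0.62, -1.13 and -0.85, each without overlap, and did not pass (adjusted p = 0.0521, 0.0549 and 0.157). Of 8 markers of neurons and Schwann cells 0 passed (0 also at an unadjusted p under 0.05). Of the markers in the table, Upk3a and Scgb1a1 of the proximal airway were at 0 in at least 1 lung, and none was at 0 in all. The part of these markers' cell types in the level of the mitosis genes was not tested, since a whole-lung count gives no division rate per cell type.

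**Figure D5:**
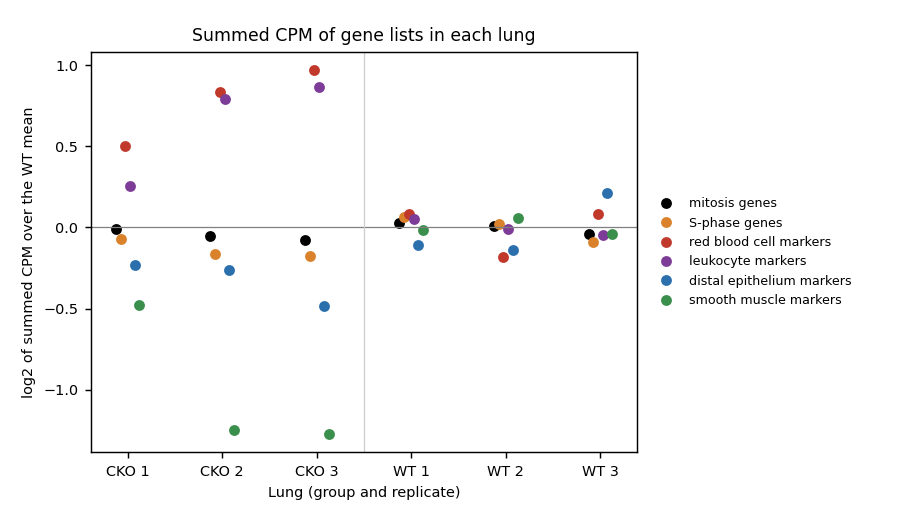
Log2 of the summed CPM of 6 gene lists in each lung over the mean sum of the WT lungs (y axis), by lung (x axis), with the CKO lungs left of the line. Mitosis genes (black) and S-phase genes (orange) stay closer to 0 than the marker lists in the CKO lungs, where blood cell and smooth muscle markers of the CKO lungs stand apart, least so in CKO replicate 1.

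In the authors' deposited table, which covers 19623 genes and calls 12.1% of them, all 40 members are listed and 0 have an adjusted p under 0.05 (0 also at an unadjusted p under 0.05). The log2 fold changes of the authors' deposited table and those given here differ by at most 0.00529 for any member.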

How the data were processed

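Whole lungs were sequenced in 2 runs each, and the groups and replicate numbers come from the labels. Reads were trimmed with cutadapt 1.13 and Trimmomatic 0.35, aligned with STAR 2.5.2b to GRCm38 and counted by HTSeq 0.6.1p2 (all per the submitters' processing notes), using GENCODE M8 per the file headers. A deposited table holds raw counts per gene and run. The deposited alignment table gives counts of uniquely mapped reads and of reads outside features. For each gene the authors deposited p-values, raw and adjusted, and a log2 fold change; edgeR 3.16.5 is named in the submitters' processing notes. The files hold 36 further columns of per-sample values, which were not used.

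Runs were summed per lung, and 92 ERCC spike-ins entered neither library sizes nor tests. edgeR 4.0.16 in R 4.3.3 was run with filterByExpr (minimum count 10), TMM scaling and a quasi-likelihood F test on group over all 6 lungs, with Benjamini-Hochberg adjustment over the 17843 genes tested. SE is the log2 fold change divided by the root of F, and 95% intervals use the total degrees of freedom. CPM use TMM-scaled library sizes, and kb are merged exons of GENCODE M21, which matched 98.8% of the genes by identifier. Other settings were RLE factors, total count and spike-in scaling, no filter, DESeq2 1.42.0, limma-voom (limma 3.58.1), each run alone, a replicate block, replicates 2 and 3 only, the share of reads outside features as a covariate, and each lung left out. The procedure was tested on simulated data. The members and lists were chosen with earlier results of these data known. All 40 members are reported. Values per lung are given for the 12 members with the smallest p, the 3 highest and 3 lowest per kb, the genes called in the cell cycle lists and Tgfbr2; of each other list, up to 4 genes with the smallest p were named. Scgb1a1, Sftpb, Sftpc, Nkx2-1, Tcf21, Col1a1, Col3a1 and genes that overlap a named gene were named after their values were seen. Precision rests on the spread between 3 lungs a group.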

Additional observations from a re-analysis of the deposited data

How the results depend on the processing

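No member other than Plk1 passed in any of the 17 other settings, and their log2 fold changes there ran from -0.197 to 0.107. Plk1 passed with RLE factors, without WT replicate 3 and with DESeq2 (adjusted p = 0.0205 to 0.0498) and in no other setting (0.0539 to 0.671). The members that fell were therefore 0 with total count scaling, spike-in scaling, no filter, run 1 alone, run 2 alone, the replicate block, replicates 2 and 3 only, the read share covariate and limma-voom, and 0 to 1 with 1 lung left out. Total count scaling put the median member at -0.0213 and the read share covariate at -0.0232. Spike-in scaling gave 626 genes higher and 230 lower over all genes, 0 S-phase genes lower and a median member at 0.0271, beside a median of all genes at 0.0587; it moved the median member to the other side of 0. Without a filter 884 genes were lower, with 1 of the 79 further mitosis genes and 4 S-phase genes among them. Run 1 and run 2 alone each gave 1 further mitosis gene lower. With the replicate block 1 further mitosis gene and 5 S-phase genes were lower. Deviations of same-numbered lungs from their group means correlated weakly over all genes (0.102, 0.0887 and 0.0365). That does not settle whether the numbers pair the lungs. The block gave 1087 genes higher and 693 lower over all genes at an adjusted p under 0.05. At an unadjusted p under 0.05 it gave 5 members, and the share of all genes at that threshold was not taken with the block. Replicates 2 and 3 alone gave 1051 genes lower, 2 further mitosis genes higher and 1 lower, and 3 S-phase genes lower. With the read share covariate 0 S-phase genes were lower. DESeq2 gave 1034 genes lower, 3 of them further mitosis genes and 7 S-phase genes. With 1 lung left out, 162 to 1713 genes were higher and 90 to 1185 lower over all genes, 1 to 2 further mitosis genes were higher and 0 to 3 lower, and 0 to 7 S-phase genes were lower. The cause of these differences was not tested.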
